A study of Arabidopsis thaliana with 16 samples.

Results

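MSRB6 (AT4G04840), which codes for a methionine sulfoxide reductase, and the glutaredoxin genes AT2G30540 and AT3G62950 were followed across Arabidopsis thaliana shoot apices and cotyledons taken from the dark into white light. They were picked by locus in the array annotation and are 3 of the 10234 distinct genes that had a tested probe set of their own. The probe sets were 255298_at for MSRB6, 267497_at for AT2G30540 and 251196_at for AT3G62950, each matched to 1 gene. MSRB6 and AT2G30540 were picked with their large difference between 6 h of light and dark in the apex already known. Every contrast that uses the dark or 6 h apex arrays is therefore a description for these genes, without a test, and AT3G62950, whose choice rests on no recorded comparison, is described only.

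The study set light-exposed tissue against dark tissue in Landsberg erecta seedlings (stock N1642), with 16 ATH1 arrays, 1 per sample, in 10 groups. Shoot apices, dissected as the meristem region, had 1, 2, 6, 24, 48 or 72 h of light or stayed dark, and cotyledons without petiole and tip had 1 or 6 h of light or stayed dark. The groups at 2, 24, 48 and 72 h had 1 array each and the other 6 groups had 2. No group carried a mutation or transgene beyond the strain itself, and all seedlings had stratification for 3 days at 4 C, a light pulse of 30 min at 100 micromol per square metre and second, and 3 days of darkness at 21 C on medium without sucrose. The labels add developing leaf primordia to the meristem region at 48 and 72 h. Each sample pooled about 1500 to over 4000 seedlings from several plates and experiments, so p-values measure the spread between these pools, which may be partly technical. All dark samples were harvested at the end of the 3 dark days, and light therefore cannot be told apart from age or time of day.

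Methionine sulfoxide reductases repair proteins by turning oxidised methionine back into methionine. The B type, which includes MSRB6, acts on a single stereoisomer of the oxidised form. Reducing power for methionine sulfoxide reductases comes from thioredoxins or, for some plastid forms, from glutaredoxins with glutathione. AT2G30540 and AT3G62950 code for CC-type glutaredoxins, a class found only in land plants. Members of the class bind TGA transcription factors, ROXY1 and ROXY2 shape petals and anthers, and some other members travel from shoot to root as signals of nitrogen demand.

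Signals below are the deposited array intensities on a linear scale, and differences are log2 differences from 1 limma model of all arrays, given ± SE. A signal was taken as not above background (dim) if it lay at or below the 35th percentile of its array, a floor of 12.4 to 18.6. A fold against a group whose arrays were all dim is a lower bound computed against that floor. A gene was called at a Benjamini-Hochberg adjusted p under 0.05, two-sided, over 18237 probe sets. With 2 arrays or 1 array per group, the number of arrays limits the precision.

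RNA quality and tissue markers were uneven over the arrays. For the GAPDH control, the 3' to 5' signal ratio reached 5.40 in the second 6 h apex array, against 0.832 to 1.85 in the other apex arrays and 1.73 to 4.72 in cotyledon arrays. Averaged over all arrays outside its group, log2 signals of apex dark replicate 2 correlated at 0.786, lower than for any other array. The single 72 h apex array was close behind at 0.789. Of 12 apex markers, 3 had a probe set of their own in the array annotation, which named no gene for 8730 of 22746 probe sets. CLV3, a stem cell peptide gene, was above the floor in 4 of 10 apex arrays and 0 of 6 cotyledon arrays, LAS in 9 of 10 and 5 of 6, and UFO in 0 of each. The summed signal of these 3 was 46.6 to 77.9 in the apex up to 48 h, 18.1 at 72 h, and 9.49 to 52.4 in cotyledons. ICL, the enzyme of reserve mobilisation, was the single measured gene of its 3. Its signal was 806 and 1398 in the 6 h apex, against 3667 and 3986 in the dark apex, and 2125 and 2187 in 6 h cotyledons, against 8523 and 8720 in dark cotyledons. The summed signal of 3 of 5 guard cell markers was 204 and 205 in cotyledons at 6 h and 136 and 183 at 1 h, against 80.0 and 102 in the dark. In 6 h against dark cotyledons SPCH had 101 and 119 against 22.4 and 59.7, and MUTE 63.0 and 60.2 against 15.9 and 12.3. FAMA did not rise, with 41.2 and 24.5 at 6 h and 23.7 and 16.8 at 1 h, against 41.7 and 30.1 in the dark. None of the 2 vascular markers had a probe set of its own in that annotation.

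MSRB6 was bright at 2 and 6 h of light in the apex and at 6 h in cotyledons, and dim or nearly so in the dark. In the apex its signal was 2.68 and 11.9 in the dark, 46.4 and 48.5 after 1 h, 661 after 2 h, 639 and 1487 after 6 h, 209 after 24 h, 71.9 after 48 h and 13.4 after 72 h. Both dark arrays and the 72 h array were dim, and every array between them was above the floor. The signal was thus highest at 2 and 6 h and lower at each later time, though the times after 6 h rest on 1 array each.

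In cotyledons MSRB6 had signals of 26.6 and 13.4 in the dark, 19.5 and 78.3 after 1 h, and 1186 and 1328 after 6 h. Dark and 1 h cotyledons overlapped, and the 6 h arrays lay far above both. The comparison recorded for the choice of the gene used apex arrays, although earlier results of all arrays were known. MSRB6 rose in cotyledons after 6 h by 6.06 ± 0.69 (limma, adjusted p = 6.25e-05, n = 2 arrays each), which is 66.6-fold, in a comparison where 15.5% of all probe sets were called. From 6 h against 1 h the rise was 5.01 ± 0.69, or 32.1-fold (adjusted p = 0.000536), where 10.4% were called. After 1 h the difference from dark was 1.05 ± 0.69 and did not pass the test (adjusted p = 0.616), with an interval of 2 SE on either side running from -0.32 to 2.42. Both 6 h calls were kept when any 1 array was left out, with a highest adjusted p of 0.00183 against dark and 0.00988 against 1 h. Leaving out replicate 1 or 2 of the 1 h cotyledons changed the difference from 1 h to 4.00 or 6.01. Of the guard cell markers, SPCH and MUTE were also higher in these 6 h cotyledons and FAMA was not, and ICL was lower (values above). The part of these markers in the result was not tested. In whole tissue, fewer cells of a type and less RNA per cell cannot be told apart.

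As a description, MSRB6 in the apex stood above the dark by 3.07 ± 0.69 after 1 h, 6.87 ± 0.84 after 2 h and 7.43 ± 0.69 after 6 h. Because dark signals were dim, the folds are bounds, at least 2.89-fold, at least 40.3-fold and at least 59.4-fold. With dim signals raised to the floor the 3 differences were 1.53, 5.33 and 5.89. The 2 arrays at 6 h differed, with 1487 in replicate 2, whose GAPDH ratio was 5.40. Without that array the 6 h difference was 6.82, without 6 h replicate 1 it was 8.04, and without replicate 2 of both the 6 h and the dark apex it was 7.90. The dim dark arrays moved it more, to 6.36 without apex dark replicate 1 and 8.51 without replicate 2. In the same order the 1 h difference was 2.00 and 4.15, and the 2 h difference 5.80 and 7.94.

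Late light, the mean of the 24, 48 and 72 h groups, was 3.38 ± 0.63 above the dark apex for MSRB6 (at least 3.57-fold), or 2.31 and 4.45 without apex dark replicate 1 or 2. It differed from 6 h by -4.05 ± 0.63, or -4.66 and -3.45 without apex 6 h replicate 1 or 2. Against 1 h the difference was 0.31 ± 0.63 and was not called (adjusted p = 0.821), with 16.3% of probe sets called in that comparison. The 2 SE interval was -0.95 to 1.56, and the 3 arrays under this mean ran from 209 at 24 h to 13.4 at 72 h.

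**Figure D1:**
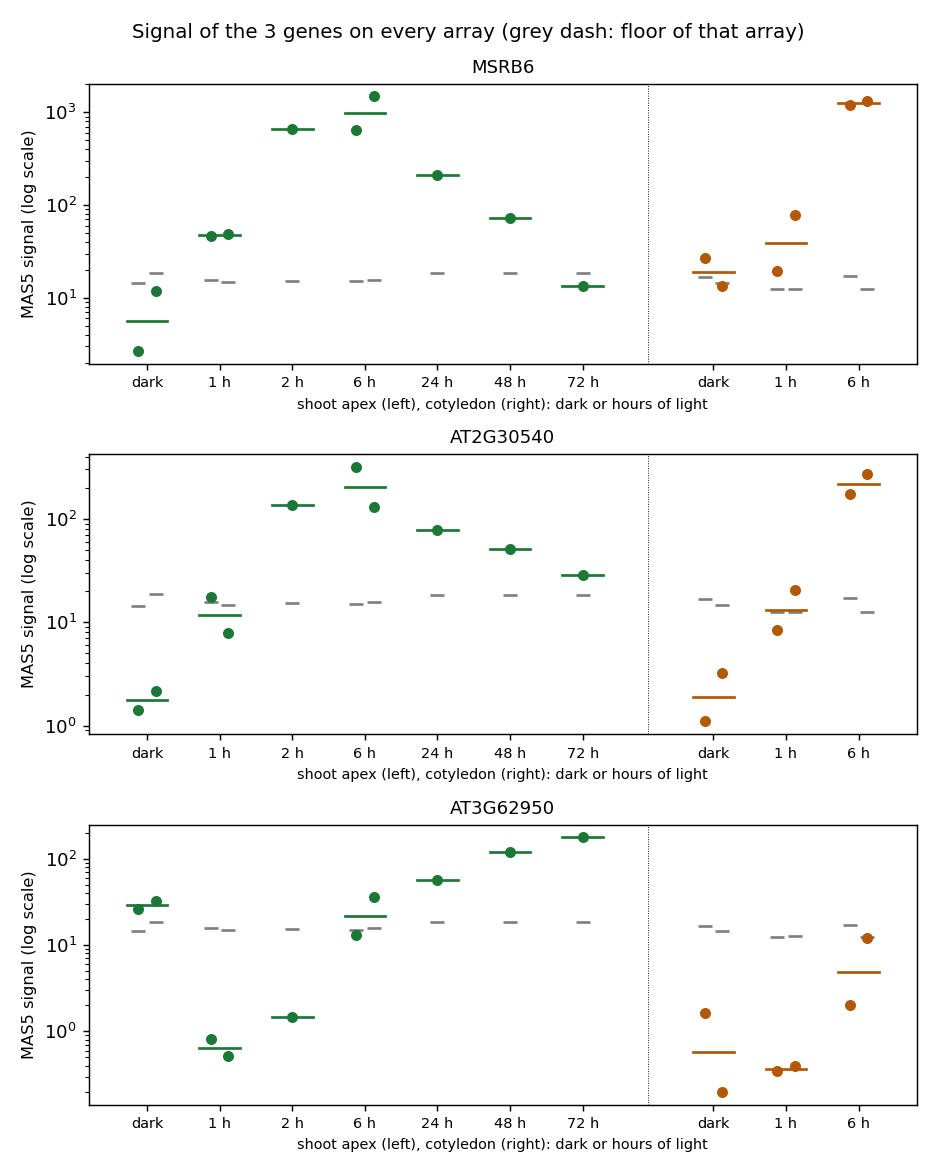
Signal of MSRB6, AT2G30540 and AT3G62950 on each of the 16 arrays (log axis, deposited signal units). Points are arrays, coloured bars are geometric means of a group and grey dashes are the floor of each array. MSRB6 and AT2G30540 were highest at 2 to 6 h, whereas AT3G62950 was highest at 72 h in the apex, at 176, and under the floor in all 6 cotyledon arrays.

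AT2G30540, the first of the CC-type glutaredoxins, was likewise brightest on average at 6 h in both tissues. Its apex signal was 1.43 and 2.15 in the dark, 17.4 and 7.92 after 1 h, 136 after 2 h, 318 and 131 after 6 h, 78.0 after 24 h, 51.4 after 48 h and 28.5 after 72 h. Dark signals were dim, 1 of the 2 arrays at 1 h was above the floor, and all arrays from 2 h on were above it. At 72 h the signal was still above the floor, which was not so for MSRB6.

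In cotyledons AT2G30540 had signals of 1.10 and 3.24 in the dark, 8.50 and 20.3 after 1 h, and 175 and 271 after 6 h. Dark cotyledons were dim, and the 6 h arrays did not overlap with either earlier group. AT2G30540 rose in cotyledons after 6 h by 6.85 ± 0.69 (limma, adjusted p = 2.99e-05, n = 2 each), at least 14.0-fold, and by 3.80 with dim signals raised to the floor. The 6 h cotyledons exceeded the 1 h cotyledons by 4.05 ± 0.69, or 16.6-fold (adjusted p = 0.00235). Whichever array was left out, both calls were kept, with a highest adjusted p of 0.00120 against dark and 0.0379 against 1 h. The difference from dark was 6.07 without cotyledon dark replicate 1 and 7.63 without replicate 2, and leaving out replicate 1 or 2 of the 1 h cotyledons changed that from 1 h to 3.42 or 4.68.

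The first hour in cotyledons did not give AT2G30540 a settled result. The difference of 2.80 ± 0.69 from dark just missed the threshold (adjusted p = 0.0548), where 2.19% of all probe sets were called. It was called under several other settings (adjusted p = 0.0283 after quantile normalization), but it was 0.03 with dim signals raised to the floor (adjusted p = 0.984). No fold is given there, because 1 of the 2 lit arrays was dim as well and the bound was under 1.

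Described without a test, AT2G30540 stood above the dark apex by 2.74 ± 0.69 after 1 h, 6.28 ± 0.84 after 2 h and 6.86 ± 0.69 after 6 h. The 2 h and 6 h differences correspond to at least 8.26-fold and at least 12.4-fold. With dim signals raised to the floor the 1 h difference was -0.04 and the later ones were 3.05 and 3.63. Here the higher 6 h signal was in replicate 1, so that leaving out replicate 1 gave 6.22, leaving out replicate 2 gave 7.50, and leaving out replicate 2 with apex dark replicate 2 gave 7.80. The 1 h difference was 2.18 without apex 1 h replicate 1 and 3.31 without replicate 2.

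In late light AT2G30540 was 4.79 ± 0.63 above the dark apex (at least 2.96-fold). It differed from 6 h by -2.07 ± 0.63, or -1.43 and -2.71 without apex 6 h replicate 1 or 2. Against 1 h it was higher, with the 3 late arrays at 28.5 to 78.0 all above the 17.4 and 7.92 of the 1 h arrays. With dim signals raised the difference was 1.60, 1 of the 2 arrays at 1 h being dim. With signals as deposited it was 2.05 ± 0.63, or 4.14-fold, and was called (limma, adjusted p = 0.0394). This call ended without apex 1 h replicate 2 (1.48, adjusted p = 0.346), without apex 1 h replicate 1 (2.62, adjusted p = 0.0590), and without cotyledon 6 h replicate 1 or 2 (2.05, adjusted p = 0.0566 and 0.0586). It also ended with quantile normalization (1.85, adjusted p = 0.0602).

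**Figure D2:**
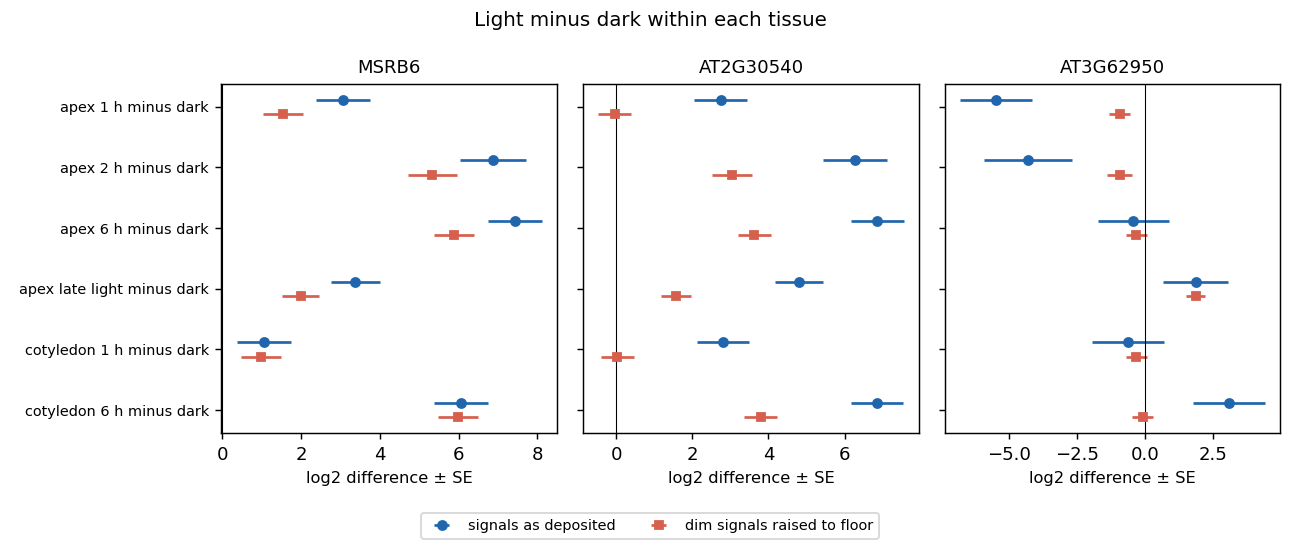
Log2 difference of light from dark within each tissue (x axis) for the 3 genes, as fitted ± SE, with deposited signals in blue circles and with dim signals raised to the floor in red squares. The 6 h differences of AT2G30540 shrink to 3.63 in the apex and 3.80 in cotyledons once dim dark signals are raised, and its 1 h differences lie at -0.04 and 0.03.

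AT3G62950 followed another course in the apex. Its signal there was 26.4 and 32.3 in the dark, 0.811 and 0.522 after 1 h, 1.46 after 2 h, 13.1 and 35.9 after 6 h, 56.3 after 24 h, 120 after 48 h and 176 after 72 h. The dark arrays were above the floor, the 1 and 2 h arrays were dim, 1 of the 2 arrays at 6 h was above the floor, and the 3 late arrays were above all others. As a description, the apex was 5.49 ± 1.32 lower than dark after 1 h and 4.32 ± 1.62 lower after 2 h, of which the floor allows at least 1.91-fold and at least 1.90-fold. At 6 h the difference from dark was -0.43 ± 1.32. The sign depended on 1 array, since the difference was 0.30 without replicate 1 and -1.15 without replicate 2 of the 6 h apex.

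Late light lay 1.86 ± 1.20 above the dark apex for AT3G62950, or 3.63-fold, and at least 6.94-fold above 1 h. The single 72 h array that carried its highest signal, 176, also had the lowest summed apex marker signal of the apex arrays, 18.1, and leaf primordia in its label. Whether that tissue change took part in the result was not tested.

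In cotyledons AT3G62950 was dim in all 6 arrays, with signals of 1.63 and 0.199 in the dark, 0.346 and 0.394 after 1 h and 2.00 and 11.9 after 6 h. The fitted 6 h difference of 3.10 ± 1.32 was -0.09 with dim signals raised, and values under the floor have no order. Between tissues, the dark apex exceeded the dark cotyledon at least 1.87-fold, and at 1 h both tissues were dim. No fold is given at 6 h, where the cotyledon and 1 of the 2 apex arrays were dim.

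For MSRB6 and AT2G30540 no difference between apex and cotyledon was called at 1 h of light. At 1 h MSRB6 was 0.28 ± 0.69 higher in the apex than in the cotyledon (limma, adjusted p = 0.874, 2 SE interval -1.09 to 1.65), where 8.71% of probe sets were called. AT2G30540 was -0.16 ± 0.69 in the same comparison (adjusted p = 0.934, interval -1.54 to 1.21). These intervals leave room for differences of more than 2-fold either way, so they do not show that the tissues were alike. The sign also changed when single arrays were left out, with ranges of -0.72 to 1.28 for MSRB6 and -0.79 to 0.46 for AT2G30540.

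At 6 h, described without a test, the apex differed from the cotyledon by -0.36 ± 0.69 for MSRB6 and -0.10 ± 0.69 for AT2G30540. In the dark MSRB6 was dim in the apex and above the floor in 1 of 2 cotyledon arrays, at least 1.15-fold lower in the apex, and AT2G30540 was dim in both tissues. The light response of the apex minus that of the cotyledon was 2.02 ± 0.97 for MSRB6 at 1 h and 1.38 ± 0.97 at 6 h, but 0.54 and -0.10 with dim signals raised. Leaving out 1 array gave 0.95 to 3.09 and 0.30 to 2.45. For AT2G30540, dim in the dark in both tissues, these differences were -0.06 ± 0.97 and 0.01 ± 0.97, with -0.06 and -0.17 when dim signals were raised. Leaving out 1 array gave -0.84 to 0.72 and -0.77 to 0.79.

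Ordered by geometric mean signal, MSRB6 was highest in 6 h cotyledons (1255), then in the apex at 6 h (975), 2 h (661), 24 h (209), 48 h (71.9) and 1 h (47.5), in 1 h cotyledons (39.0) and in dark cotyledons (18.8). AT2G30540 ran from 6 h cotyledons (218) through the apex at 6 h (204), 2 h (136), 24 h (78.0), 48 h (51.4) and 72 h (28.5) to 1 h cotyledons (13.1) and the 1 h apex (11.7). AT3G62950 ran from the apex at 72 h (176) through 48 h (120), 24 h (56.3) and dark (29.2) to 6 h (21.7). The remaining groups, 2, 2 and 5 of the 10, were wholly dim and have no order. No step between neighbours in any of the 3 orders exceeded 2 SE. The residual SD behind these errors was 0.69 log2 units for MSRB6 and for AT2G30540 and 1.32 for AT3G62950.

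Over the 16 arrays the log2 signals of MSRB6 and AT2G30540 had a Pearson correlation of 0.89, or 0.93 with dim signals raised, and a Spearman rho of 0.85. AT3G62950 had a correlation of 0.07 with MSRB6 and 0.26 with AT2G30540, which were -0.17 and 0.00 with dim signals raised. Replicates and tissues are shared between these points, and the values describe the arrays only.

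Among 10338 other single-gene probe sets, the 5 whose log2 signal followed MSRB6 most closely over the 16 arrays were VTC4, an enzyme of ascorbate synthesis (Pearson r = 0.94), AT1G44000 (0.94), AT3G05180 (0.93), AT2G42220 (0.93) and AT1G22410 (0.93). VTC4 averaged 381 ± 51.7 in the 6 h apex and 32.6 ± 0.333 in the dark apex, and 737 ± 38.7 in 6 h cotyledons and 88.8 ± 17.8 in dark cotyledons (SD, n = 2 each). AT2G30540 was followed most closely by AT1G60590 (0.95), AT5G24810 (0.93), AT3G05180 (0.92), AT1G44000 (0.92) and SAE1A, a subunit of the SUMO-activating enzyme (0.92). With dim signals raised, r in the orders given was 0.92, 0.89, 0.93, 0.93 and 0.94 for MSRB6. For AT2G30540 it was 0.88, 0.88, 0.86, 0.81 and 0.80. AT3G05180 and AT1G44000 stand on both lists. The genes closest to AT3G62950 were AT3G19010 (0.92), AT4G01960 (0.92), AT1G35190 (0.91), AT2G20670 (0.90) and AT1G49500 (0.90). With dim signals raised, these values were 0.80, 0.82, 0.84, 0.73 and 0.90. The first set rests in part on signals of AT3G62950 under the floor. None of these genes was on either other list.

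The rest of the CC-type class held genes called in the same direction as AT2G30540 and genes called in the opposite one. Of 21 listed genes, 17 had a probe set of their own and all 17 were tested, which leaves 15 without AT2G30540 and AT3G62950. In the apex 5 of the 15 were higher and 1 lower after 1 h, where 10.8% of all probe sets were called, 5.69% higher and 5.13% lower. After 2 h 4 were higher and 1 lower (10.4% of all called, 5.35% higher and 5.09% lower), and after 6 h 7 were higher and 1 lower (25.2% of all called, 12.3% higher and 12.9% lower). In cotyledons 4 were higher and 0 lower after 1 h (1.51% of all higher and 0.674% lower), and 6 higher and 0 lower after 6 h (7.79% higher and 7.73% lower). At an unadjusted p under 0.05, 7 and 8 of the 15 passed limma's test in either direction in cotyledons after 1 and 6 h, against 11.7% and 27.5% of all probe sets. The median difference after 6 h was 1.68 in the apex and 0.92 in cotyledons, against -0.07 and -0.08 over all probe sets. After 1 h it was 0.88 in both tissues, but 0.07 and -0.02 with dim signals raised.

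The cluster AT4G15660 to AT4G15700 held all 4 genes called in cotyledons after 1 h. AT4G15660 had signals of 191 and 168 in the 6 h apex and 51.0 and 36.5 in the 1 h apex, against 2.79 and 2.24 in the dark apex. In cotyledons it had 104 and 151 at 6 h and 67.4 and 84.7 at 1 h, against 8.86 and 6.64 in the dark. Lit and dark arrays did not overlap in either tissue. It was at least 10.9-fold higher in the apex after 6 h (limma, adjusted p = 3.47e-07) and at least 2.63-fold after 1 h (adjusted p = 1.36e-05), and in cotyledons at least 8.02-fold after 6 h (adjusted p = 1.81e-05) and at least 4.84-fold after 1 h (adjusted p = 0.000171).

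AT4G15680 rose 17.4-fold in the apex after 6 h (4.12 ± 0.36, adjusted p = 5.48e-06) and 11.9-fold in cotyledons (3.57 ± 0.36, adjusted p = 2.86e-05). It also rose after 1 h, by 1.77 ± 0.36 in the apex and 2.71 ± 0.36 in cotyledons (adjusted p = 0.00600 and 0.000659), the apex call ending without apex 1 h replicate 1 (1.66, adjusted p = 0.0548). In cotyledons after 6 h AT4G15690 was at least 4.32-fold higher (adjusted p = 0.00202) and AT4G15700 at least 2.76-fold (adjusted p = 0.000600). After 1 h they were at least 3.06-fold and at least 1.30-fold higher (adjusted p = 0.0156 and 0.0257), calls that ended with dim signals raised (adjusted p = 0.0634 and 0.707). The AT4G15690 call also ended without cotyledon dark replicate 1 (2.50, adjusted p = 0.0738) and without cotyledon 1 h replicate 1 or 2 (4.09 and 4.93, adjusted p = 0.130 and 0.0504), and the AT4G15700 call without any of the 4 dark and 1 h cotyledon arrays (2.53 to 2.79, highest adjusted p = 0.125). The genes of this cluster are near-identical copies, and how far each probe set reads 1 of them alone was not tested.

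The genes beside AT3G62950 on chromosome 3 are CC-type glutaredoxins too, and no difference between genes was tested. AT3G62960, with no protein-coding gene between, had signals of 47.8 and 116 in the 6 h apex, 72.9 at 2 h, and 31.6 and 34.2 in the 1 h apex, against 9.03 and 2.83 in the dark apex. All lit arrays up to 48 h were above the floor and both dark arrays were dim. It was at least 4.53-fold higher after 6 h (3.88 ± 0.61, limma, adjusted p = 0.000416) and at least 4.44-fold after 2 h (adjusted p = 0.00440). The call after 1 h (at least 2.00-fold, adjusted p = 0.0114) ended with dim signals raised (adjusted p = 0.113), without apex dark replicate 2 (1.86, adjusted p = 0.112) and without apex 1 h replicate 1 or 2 (2.76 and 2.64, adjusted p = 0.0621 and 0.0928).

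In cotyledons AT3G62960 did not pass the test after 6 h (0.82 ± 0.61, adjusted p = 0.434). The difference between tissues in its 6 h response, 3.06 ± 0.86, was not called (adjusted p = 0.0767). AT3G62930, with 1 gene between it and AT3G62950, had signals in the apex of 17.1 and 28.2 in the dark, 27.9 and 16.7 at 1 h, 57.3 at 2 h, 87.4 and 81.9 at 6 h, 81.9 at 24 h, 102 at 48 h and 67.8 at 72 h, all above the floor. It was higher in late light than in the dark apex by 1.91 ± 0.51 (adjusted p = 0.0222), the direction of AT3G62950, and this call ended without either dark apex array (1.55 and 2.28, adjusted p = 0.161 and 0.0508). After 6 h it was higher by 1.95 ± 0.56 (adjusted p = 0.0212), which ended without apex dark replicate 1 (1.58, adjusted p = 0.129) or apex 6 h replicate 1 or 2 (1.90 and 1.99, adjusted p = 0.0748 and 0.0736). In cotyledons it was at least 3.99-fold higher in 6 h cotyledons than in dark ones (adjusted p = 7.27e-05), and AT3G62950 itself was dim in all of those arrays.

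AT5G18600 was, like AT3G62950, lowest in the apex at 1 and 2 h of light. Its signal was 38.8 and 37.8 in the 1 h apex, 22.8 at 2 h, 193 and 412 at 6 h, 105 at 24 h, 206 at 48 h and 360 at 72 h, against 682 and 575 in the dark apex. The lit apex arrays all lay below both dark arrays. It fell by 4.03 ± 0.34 after 1 h (limma, adjusted p = 6.40e-06) and by 4.78 ± 0.41 after 2 h (adjusted p = 1.44e-05), and was 2.88 ± 0.34 higher at 6 h than at 1 h (adjusted p = 0.000374), where 5.96% of probe sets were called.

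The cotyledon signals of AT5G18600 were 385 and 599 at 6 h and 349 and 241 at 1 h, against 266 and 242 in the dark, and neither difference passed the test (0.92 ± 0.34 and 0.19 ± 0.34, adjusted p = 0.0861 and 0.894). The difference between tissues in the 1 h response was -4.23 ± 0.48 (adjusted p = 0.000650), where 1.02% of probe sets were called. It was kept whichever array was left out.

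**Figure D3:**
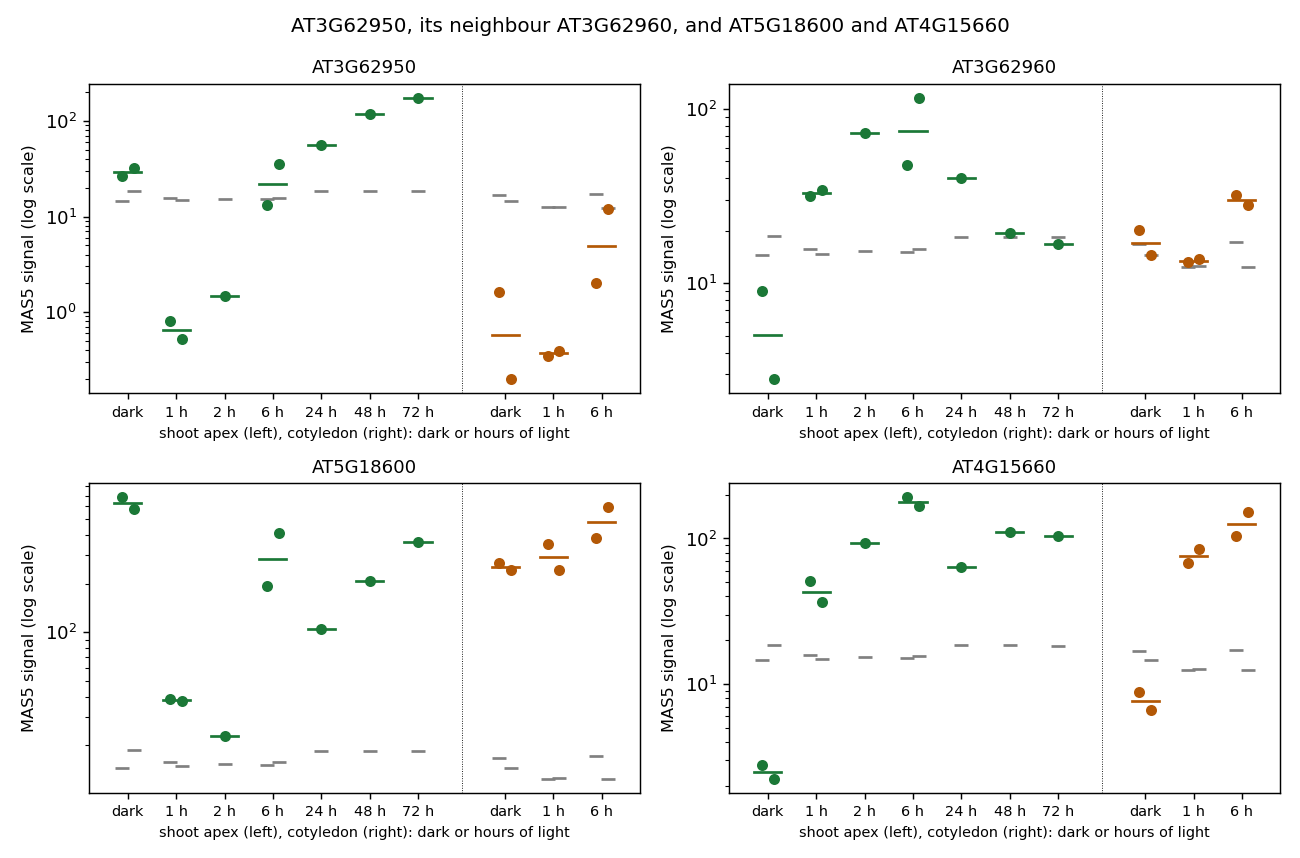
Signal on each array (log axis, deposited signal units) of AT3G62950, its neighbour AT3G62960, and AT5G18600 and AT4G15660. Points are arrays, coloured bars are geometric means and grey dashes are floors. AT3G62950 and AT5G18600 have their lowest apex signals at 1 and 2 h, whereas AT3G62960 and AT4G15660 are above the floor there.

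Other CC-type genes were called in 1 tissue or at 1 time. AT4G33040 rose in the apex after 1 h by 1.83 ± 0.35 (adjusted p = 0.00393), a call that ended without apex dark replicate 2 (1.51, adjusted p = 0.0506). GRX480, a partner of TGA factors in salicylic acid responses, rose there by 2.29 ± 0.66 (adjusted p = 0.0394), and its call ended without apex dark replicate 2 (1.45, adjusted p = 0.297) and without either 1 h apex array (highest adjusted p = 0.184) or any 1 and 6 h cotyledon array (highest adjusted p = 0.0526). AT1G06830 was higher after 6 h in cotyledons by 3.55 ± 0.82 (adjusted p = 0.00888), which ended without cotyledon dark replicate 1 (2.62, adjusted p = 0.111) or cotyledon 6 h replicate 2 (3.11, adjusted p = 0.0948). AT1G06830 also averaged 93.7 in the 6 h apex, against 14.7 in the dark apex, a difference of 2.39 with dim signals raised. ROXY1, the flower gene, was at least 4.91-fold higher in the 6 h apex than in 6 h cotyledons (adjusted p = 0.0323), where 3.31% of probe sets were called, and it was dim in 5 of 6 cotyledon arrays. The ROXY1 call ended without apex 6 h replicate 2 (3.36, adjusted p = 0.109), cotyledon 6 h replicate 1 (2.61, adjusted p = 0.254), apex 1 h replicate 1 or 1 of the dark apex arrays (3.70, highest adjusted p = 0.0527).

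In late light 5 of the 15 were higher than in the dark apex and 2 lower (15.0% of probe sets called, 8.61% higher and 6.42% lower), and 0 were higher and 3 lower than at 6 h (18.8% called, 10.3% higher and 8.50% lower). AT4G15660 was still at least 5.48-fold above dark (adjusted p = 5.96e-07) and AT4G15680 5.13-fold (adjusted p = 0.000236). Against 6 h, AT4G15680 had fallen by 1.76 ± 0.33 (adjusted p = 0.00229), the same direction as AT2G30540 and MSRB6. AT3G62950 was 2.29 ± 1.20 higher in late light than at 6 h, or 4.88-fold, given without a test. That difference was 1.56 without apex 6 h replicate 1, which was dim, and 3.01 without replicate 2.

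**Figure D4:**
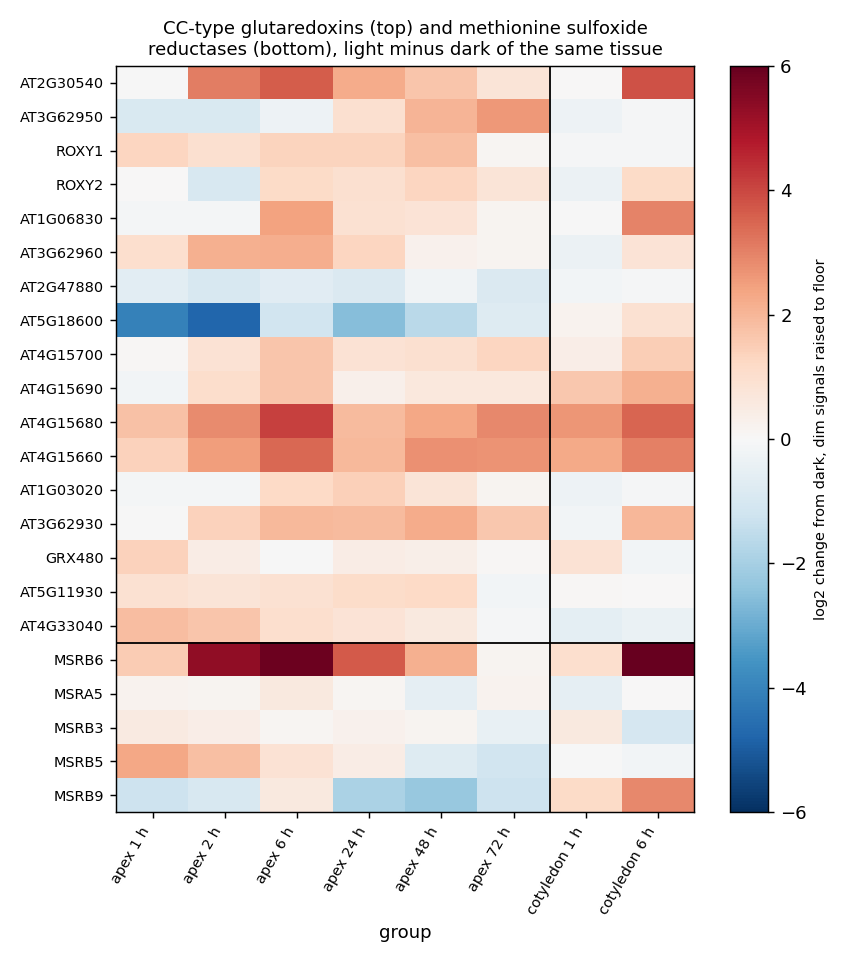
Log2 difference from dark of the same tissue, with dim signals raised to the floor, for the 17 tested CC-type glutaredoxins (rows above the line) and the 5 tested methionine sulfoxide reductases (rows under it), by group (columns). Red is higher and blue lower than dark. MSRB6 reaches 5.89 in the 6 h apex and 6.00 in 6 h cotyledons, and AT5G18600 is the darkest blue at 1 and 2 h in the apex.

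Among the other methionine sulfoxide reductases, MSRB5 was called against dark in the 1 h apex, and MSRB9 in late light in the apex and at 6 h in cotyledons. Of 14 listed genes, 5 had a tested probe set of their own, 4 of them besides MSRB6. MSRB5, the next protein-coding gene to MSRB6 on chromosome 4, was the single call of the 4 after 1 h in the apex. In that comparison 10.8% of all probe sets were called. MSRB5 had signals of 323 and 132, against 40.6 and 41.8 in the dark. It rose by 2.33 ± 0.69 (limma, adjusted p = 0.0457), a call that ended without any of the 4 dark and 1 h apex arrays (1.68 to 2.97, highest adjusted p = 0.309) and without cotyledon 1 h or 6 h arrays, which change the pooled spread (adjusted p = 0.0557 to 0.0634). After 6 h, when MSRB6 was highest, 0 of the 4 were called by limma and 0 had an unadjusted p under 0.05. Over all probe sets these shares were 25.2% and 36.4%, and 4 genes are too few to tell such counts from them. MSRB5 was then at 82.9 and 69.5.

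In cotyledons MSRB9, a further B-type gene, was the single call after 6 h, where 15.5% of all probe sets were called. After 1 h 0 of the 4 were called by limma and 1 had an unadjusted p under 0.05. Over all probe sets these shares were 2.19% and 11.7%. MSRB9 had 134 and 134 at 6 h, against 10.9 and 19.8 in the dark, and rose by 3.19 ± 0.39, or 9.13-fold (adjusted p = 0.000111). The call was kept whichever array was left out. In the apex MSRB9 was at 348 and 637 at 6 h, against 404 and 250 in the dark, and overlapped between these groups (0.56 ± 0.39, adjusted p = 0.327). Before that MSRB9 averaged 133 in the 1 h apex and had 164 on the single 2 h array, against 327 in the dark, differences that were not called. In late light it was at 84.6, 65.8 and 133 and fell by 1.81 ± 0.35 against the dark apex (adjusted p = 0.00313), a call that ended without apex dark replicate 1 (-1.47, adjusted p = 0.0581). It was 4.44 ± 0.39 higher in the dark apex than in dark cotyledons (adjusted p = 1.04e-05), where 16.9% of probe sets were called.

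Thioredoxins, which can donate electrons to methionine sulfoxide reductases, had 5 of 19 genes measured, all 5 of them plastid forms. Whether any of the 5 serves MSRB6 was not tested. Of the 5, 4 rose in the 6 h apex, where 12.3% of all probe sets were called higher. The plastid thioredoxin ty2 rose by 2.18 ± 0.22 (adjusted p = 1.37e-05), with 681 and 751 in the 6 h apex against 144 and 174 in the dark, and TRXF2 by 1.34 ± 0.28 (adjusted p = 0.00338). THX and ATHM2 were higher by 0.93 ± 0.28 and 0.88 ± 0.30 (adjusted p = 0.0245 and 0.0431), and both calls ended without either dark apex array or without apex 6 h replicate 2 (0.63 and 0.51, adjusted p = 0.180 and 0.299). The ATHM2 call ended as well without single arrays of the 1 h apex, the dark cotyledon or the 6 h cotyledon (0.88, adjusted p = 0.0519 to 0.0601). In cotyledons limma called 0 of the 5 at 1 h (2.19% of all probe sets called) and 0 at 6 h (15.5% called), with 1 at an unadjusted p under 0.05 each time. Of the 5, only ty2 had a called difference between tissues in its 6 h response, 1.65 ± 0.31 (adjusted p = 0.0142), where 2.69% of probe sets were called. This ended without apex dark replicate 1, cotyledon dark replicate 1 or cotyledon 6 h replicate 1 (1.52, 1.60 and 1.57, highest adjusted p = 0.0650).

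Of 10 genes for glutathione and thioredoxin reduction 4 were measured, and 3 rose in the 6 h apex (12.3% of all probe sets higher), the plastid reductase NTRC by 1.10 ± 0.28 (adjusted p = 0.0112), AT2G04700 by 0.86 ± 0.27 (adjusted p = 0.0324) and the glutathione reductase GR1 by 0.84 ± 0.24 (adjusted p = 0.0210). Without apex dark replicate 2 GR1 and AT2G04700 were not called (0.60 and 0.64, adjusted p = 0.184 and 0.228), and without apex dark replicate 1 NTRC was not (0.71, adjusted p = 0.129). GR1 was not called without apex 6 h replicate 1 or 2 either (0.82 and 0.86, adjusted p = 0.0586 and 0.0582), nor AT2G04700 without replicate 2 (0.72, adjusted p = 0.147). In cotyledons limma called 0 of the 4 after 1 h and 0 after 6 h (2.19% and 15.5% of all probe sets called), with 0 and 3 at an unadjusted p under 0.05. None of the 4 had a called difference between tissues in the 6 h response, which was 0.37 ± 0.40 for NTRC, 1.20 ± 0.39 for AT2G04700 and 0.25 ± 0.34 for GR1 (adjusted p = 0.699, 0.118 and 0.767).

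Glutaredoxins of the other 2 types, CPYC and CGFS, had 5 of 10 genes measured. All 5 are of the CPYC type, and the CGFS genes CXIP1, CXIP2, GRX4 and GRXS17 were not measured. In the 6 h apex 3 rose (12.3% of all probe sets higher), AT2G20270 by 1.14 ± 0.22 (adjusted p = 0.00214), AT5G20500 by 1.03 ± 0.23 (adjusted p = 0.00522) and GRXC2 by 0.78 ± 0.25 (adjusted p = 0.0371), the GRXC2 call ending without either dark apex array (highest adjusted p = 0.200), apex 6 h replicate 1 (0.43, adjusted p = 0.270), either 1 h apex array or cotyledon 6 h replicate 1 (0.78, highest adjusted p = 0.0515). After 1 h in the apex 1 rose (5.69% of all higher), AT2G20270 by 1.03 ± 0.22 (adjusted p = 0.00945), and its call ended without apex dark replicate 2 (1.03, adjusted p = 0.0640) or apex 1 h replicate 2 (0.87, adjusted p = 0.124). In 6 h cotyledons 2 fell (7.73% of all lower), GRXC1 by 1.99 ± 0.40 (adjusted p = 0.00367) and AT1G77370 by 1.20 ± 0.31 (adjusted p = 0.0182), a call ending without any of the 4 dark and 6 h cotyledon arrays (highest adjusted p = 0.102). None of the 15 TGA and TOPLESS genes, the partners of CC-type glutaredoxins, had a probe set of its own in the array annotation.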

How the data were processed

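RNA of 16 pooled samples was hybridised to ATH1 arrays. The deposited values are intensity signals on a linear scale, made by the authors with GCOS and MAS5, per the submitters' processing notes, which give no versions. Each array had a trimmed mean of about 100.01, leaving out 2% at each end, and was used as deposited. Signals were log2-transformed without a pseudocount. Of 22810 probe sets, 64 controls were left out, and 18237 of 22746 were tested, being above the 35th percentile of their array on at least 2 arrays. Of the 22746, 13513 had 1 gene in the platform annotation, 503 several and 8730 none. A gene without a probe set of its own in this annotation may still be on the array, and is not counted as measured. Chromosome neighbours come from RefSeq's gene table.

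The fit used limma 3.58.1 (R 4.3.3) with 1 mean per group, no block, eBayes with trend (6 residual and 7.62 prior degrees of freedom) and Benjamini-Hochberg adjustment. Groups with 1 array were assumed to vary like the others. The code was tested on simulated data. Members, lists and floor were chosen with earlier results of these data known. Any tested gene of a list could be named, first the up to 4 called genes with the smallest adjusted p per list and contrast, and for each member the 5 genes with the highest Pearson correlation.

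Alternatives were quantile normalization, median centring, no or a stricter filter (array median), and dim signals raised to the floor. Others were a pseudocount of 16, no trend and a replicate block. Each array of a group with 2 arrays was also left out in turn, and arrays single in their group were always kept. Leaving out apex dark replicate 2 and apex 6 h replicate 2 together was added after seeing the data.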

Additional observations from a re-analysis of the deposited data

Results flagged for a closer look

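The responses of 5 list genes to light differed between apex and cotyledon by limma's test of the difference itself (apex minus cotyledon, log2, 2 arrays per group). Tested besides the members were 15 CC-type glutaredoxins, 5 other glutaredoxins, 4 methionine sulfoxide reductases, 5 thioredoxins and 4 genes for glutathione and thioredoxin reduction. Of all probe sets, 1.02% were called in this test at 1 h and 2.69% at 6 h. AT5G18600 differed by -4.23 at 1 h (adjusted p = 0.000650) and by -2.07 at 6 h (adjusted p = 0.0354). The 1 h value was kept whichever array was left out, and the 6 h value was not called without either array of the dark apex, the 1 h apex, the dark cotyledon or the 6 h cotyledon (highest adjusted p = 0.130). MSRB9 differed by -2.70 at 1 h and by -2.63 at 6 h (adjusted p = 0.0302 and 0.0235). Without cotyledon dark replicate 1 these were -2.27 and -2.20 and were not called (adjusted p = 0.129 and 0.0973). AT4G33040 differed by 2.44 at 1 h (adjusted p = 0.0290), and by 2.12 without apex dark replicate 2 (adjusted p = 0.120). AT4G15660 differed by 2.14 at 6 h (adjusted p = 0.0495), which was 0.45 with dim signals raised to the floor (adjusted p = 0.741). The thioredoxin ty2 differed by 1.65 at 6 h (adjusted p = 0.0142), and by 1.60 without cotyledon dark replicate 1 (adjusted p = 0.0573). No group had 4 or more arrays, so single arrays were not tested as outliers.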

How the results depend on the processing

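MSRB6 and AT2G30540 at 6 h in cotyledons, against dark and against 1 h, kept their direction and call in every alternative run. Over the results that answer a comparison, 553 of 630 values kept their direction and their side of the threshold (counts within 1.5 times), 9 lost a call, 7 gained one, 56 counts moved and 5 changed sign. The number of arrays, and dark signals under the floor, limit all of them.

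MSRB6 in the apex minus cotyledon at 1 h was -0.013 with median centring and -0.72 to 1.28 leaving out 1 array. AT2G30540 there was 0.012 with dim signals raised and -0.79 to 0.46 leaving out 1 array. With dim signals raised, AT2G30540 in the apex at 1 h against dark was -0.035 and AT3G62950 in cotyledons at 6 h against dark was -0.092, the floor itself setting these values. AT2G30540 in late light minus 1 h was 1.85 with quantile normalization, 1.83 with median centring, 2.05 with no filter or no trend and 2.18 with a replicate block (adjusted p = 0.0509) and was not called under any of these. Leaving out 1 array gave 1.48 to 2.62. AT2G30540 in cotyledons at 1 h gained a call at 3.20 (quantile), 2.99 (median centring) and 2.80 (stricter filter, or both arrays that stood apart left out), and ranged from 2.02 to 3.58 leaving out 1 array.

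Counts of called CC-type genes were 3 to 6 (apex 1 h), 4 to 8 (apex 6 h), 2 to 4 (cotyledon 1 h) and 5 to 7 (cotyledon 6 h) leaving out 1 array. In the 6 h apex 5 were called without trend and 4 without both arrays that stood apart, and in 1 h cotyledons 2 with dim signals raised. Other glutaredoxins in the 1 h apex numbered 2 with quantile normalization, 0 without trend, 2 without both arrays and 0 to 2 leaving out 1. In 6 h cotyledons they numbered 1 without trend and 1 to 2 leaving out 1. Called methionine sulfoxide reductases in the 1 h apex were 0 with no filter, no trend or a replicate block, 2 with the stricter filter, dim signals raised or a pseudocount of 16, and 0 to 2 leaving out 1 array. In cotyledons they were 0 to 1 (1 h) and 1 to 2 (6 h) leaving out 1 array, and 2 at 6 h without both arrays. Thioredoxins numbered 0 to 1 (apex 1 h) and 2 to 4 (apex 6 h) leaving out 1 array, 2 without trend and 1 without both arrays (apex 6 h), and 1 with quantile normalization (cotyledon 6 h). Electron supply genes in the 6 h apex numbered 1 without trend, 1 without both arrays and 1 to 3 leaving out 1. Same-numbered arrays deviated together at r of -0.13 to 0.12 over 15 pairs of groups, 1 of them over 0.1, so the numbers were not taken as pairing the samples, and the replicate block changed no other call of MSRB6 or AT2G30540. Unless stated above, the cause was not tested. Counts of called genes in this paragraph take higher and lower calls together.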
